A study of Mus musculus with 20 samples.

Results

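Ribosome biogenesis genes were followed as 1 group of 38 named genes, among them Ncl, Npm1, Fbl, Nop56, Nop58, Pes1, Bop1 and the RNA polymerase I subunits Polr1a, Polr1b and Polr1c. The names were a given list, and all 38 were found among the 21887 protein-coding genes of the RefSeq annotation of the mouse genome build GRCm38. The data are lists of H3K27ac peaks, regions where chromatin carrying acetylated lysine of histone H3 was enriched by immunoprecipitation and sequencing. The cells were RAW264.7, an established mouse macrophage-like line that can be driven toward osteoclasts by the cytokine RANKL. All groups share this 1 line. Cells were left untreated (3 libraries), given 50 ng/ml RANKL for 4 h (3 libraries), given 50 ng/ml RANKL with 500 nM I-BET, an inhibitor of the BET bromodomain proteins, for 4 h (3 libraries), or given 500 nM I-BET alone for 4 h (1 library, replicate 3). The labels name no separate cultures, so a p-value here measures only the spread between these libraries, which may be technical.

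Ribosomes are made in the nucleolus. RNA polymerase I transcribes the ribosomal RNA precursor there, small nucleolar ribonucleoproteins (snoRNPs) modify it, and separate sets of factors cut, fold and export the small and the large subunit. Growing cells express these genes at high levels, and many of them are known targets of the transcription factor MYC, which binds the E-box CACGTG. H3K27ac is a mark of active promoters and enhancers, and BET proteins bind acetylated chromatin. The question for these genes is whether the mark at and around them differed after RANKL and after BET inhibition.

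RefSeq promoters, from 250 bases before to 50 after the start, were found for 33 of the 38 genes. Those of 6 core nucleolar proteins are shown because most peaks described below lie over or just after this stretch. They are, in GRCm38.p6, Pes1 on the plus strand at chr11:3963725-3964024, Ncl on the minus strand at chr1:86359406-86359705, Nop56 on the plus strand at chr2:130274162-130274461, Nop58 on the plus strand at chr1:59684756-59685055, Dkc1 on the plus strand at chrX:75095604-75095903 and Gar1 on the minus strand at chr3:129831347-129831646. Each is written 5′ to 3′ with matches to the searched motifs, on either strand, in capitals.
Pes1: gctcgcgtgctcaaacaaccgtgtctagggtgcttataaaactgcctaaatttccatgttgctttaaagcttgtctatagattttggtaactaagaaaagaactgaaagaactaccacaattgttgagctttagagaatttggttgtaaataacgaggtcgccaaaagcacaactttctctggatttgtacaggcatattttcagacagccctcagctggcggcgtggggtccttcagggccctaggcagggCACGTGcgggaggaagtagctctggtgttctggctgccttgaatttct
Ncl: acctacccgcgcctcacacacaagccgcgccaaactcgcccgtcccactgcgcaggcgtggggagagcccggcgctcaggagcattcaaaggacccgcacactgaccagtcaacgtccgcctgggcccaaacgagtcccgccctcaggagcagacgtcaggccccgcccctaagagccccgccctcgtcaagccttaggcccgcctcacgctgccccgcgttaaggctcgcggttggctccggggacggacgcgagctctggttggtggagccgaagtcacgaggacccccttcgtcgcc
Nop56: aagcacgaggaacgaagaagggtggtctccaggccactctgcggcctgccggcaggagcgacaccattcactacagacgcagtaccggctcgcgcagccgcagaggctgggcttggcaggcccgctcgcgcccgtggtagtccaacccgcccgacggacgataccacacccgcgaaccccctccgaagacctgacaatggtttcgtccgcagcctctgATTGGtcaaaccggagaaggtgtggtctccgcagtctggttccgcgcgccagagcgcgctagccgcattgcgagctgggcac
Nop58: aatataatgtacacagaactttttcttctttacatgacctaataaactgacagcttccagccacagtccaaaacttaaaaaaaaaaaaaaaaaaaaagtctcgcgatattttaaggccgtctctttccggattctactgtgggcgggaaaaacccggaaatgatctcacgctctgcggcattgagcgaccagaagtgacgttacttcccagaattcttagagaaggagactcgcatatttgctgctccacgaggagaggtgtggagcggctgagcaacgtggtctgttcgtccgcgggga
Dkc1: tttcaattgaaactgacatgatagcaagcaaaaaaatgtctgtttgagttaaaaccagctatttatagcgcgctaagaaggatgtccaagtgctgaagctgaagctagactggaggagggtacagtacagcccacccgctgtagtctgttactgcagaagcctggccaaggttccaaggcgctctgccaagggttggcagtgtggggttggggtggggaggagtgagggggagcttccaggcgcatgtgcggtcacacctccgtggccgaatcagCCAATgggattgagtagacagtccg
Gar1: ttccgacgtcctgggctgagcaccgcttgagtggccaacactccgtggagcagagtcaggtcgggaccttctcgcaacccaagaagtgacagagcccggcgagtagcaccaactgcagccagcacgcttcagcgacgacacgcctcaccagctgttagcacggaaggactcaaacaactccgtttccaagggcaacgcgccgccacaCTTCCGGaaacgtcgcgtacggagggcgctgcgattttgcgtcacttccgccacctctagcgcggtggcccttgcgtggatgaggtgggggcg

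In capitals are the CACGTG of Pes1, the CCAAT of Dkc1 and, read from the other strand, that of Nop56, and the CCGGAAG of Gar1, also on the other strand. Those of Ncl and Nop58 hold no searched motif. The motifs searched, on both strands, were the E-box CACGTG of MYC and MAX, CCGGAAG of ETS factors, CCAAT of NF-Y and the palindromic site of NRF1. None of these motifs contains another. CACGTG was in 7 of the 33 promoters (21.2%), against 8.91% of 17492 promoters of the same length in the table. The 7 genes were Imp4, Mybbp1a, Nop2, Pes1, Tsr1, Utp20 and Wdr43. In 5 of them the motif lay after the start, with its first base at position 3 in Pes1, 18 in Wdr43, 25 in Tsr1, 38 in Utp20 and 41 in Mybbp1a, counting the start as 1. In Nop2 it began 60 bases and in Imp4 121 bases before the start. CCGGAAG was in 10 of 33 (30.3%, against 12.9%), CCAAT in 9 (27.3%, against 42.3%) and the NRF1 site in 0 (against 1.47%). The median GC content of the 33 promoters was 58% and that of all promoters 56.3%. A match is a string of letters and was not tied to binding in these data.

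The lists differed greatly in length. RANKL replicate 2 covered 184.6 Mb with 141905 peaks, RANKL plus I-BET replicate 2 covered 3.44 Mb with 6041 peaks, and the other 8 lists covered 7.79 to 25.9 Mb. Sequencing depth is unknown because the lists hold no read counts. RANKL replicate 2 also had peaks at the ends of 14 of 16 genes that mark other cell types, where the other 9 libraries had 0 or 1. Of 10 macrophage markers, 6 to 10 had a peak at a gene end in each library. Gene-end counts, gained and lost peaks, covered lengths without overlap and limma counts are therefore also given without the libraries numbered 2. Some values are also given at one covered length, where counts change with the width of peaks too. The part that list length has in a difference between groups was not tested.

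Most of the ribosome biogenesis genes carried H3K27ac at a gene end in each library, and nearly all did with RANKL. A peak within 1 kb of either gene end was listed for 30, 27 and 37 of the 38 genes in the untreated libraries, 37, 38 and 37 with RANKL, 36, 25 and 34 with RANKL and I-BET and 36 with I-BET alone. The lowest counts belonged to the shortest lists, untreated replicate 2 and RANKL plus I-BET replicate 2. Among all protein-coding genes the share was 32.5, 27 and 37.7% untreated, 41.5, 74.0 and 41.8% with RANKL, 41.7, 17.3 and 36.7% with both agents and 34.8% with I-BET. The group means were 31.3 ± 5.13 genes untreated, 37.3 ± 0.577 with RANKL and 31.7 ± 5.86 with RANKL and I-BET (SD, n = 3 each). The ranges of untreated and RANKL libraries met at 37, and the difference between these means was close to the SD of the untreated libraries. In replicates 1 and 3 alone the means were 33.5, 37 and 35.

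**Figure D1:**
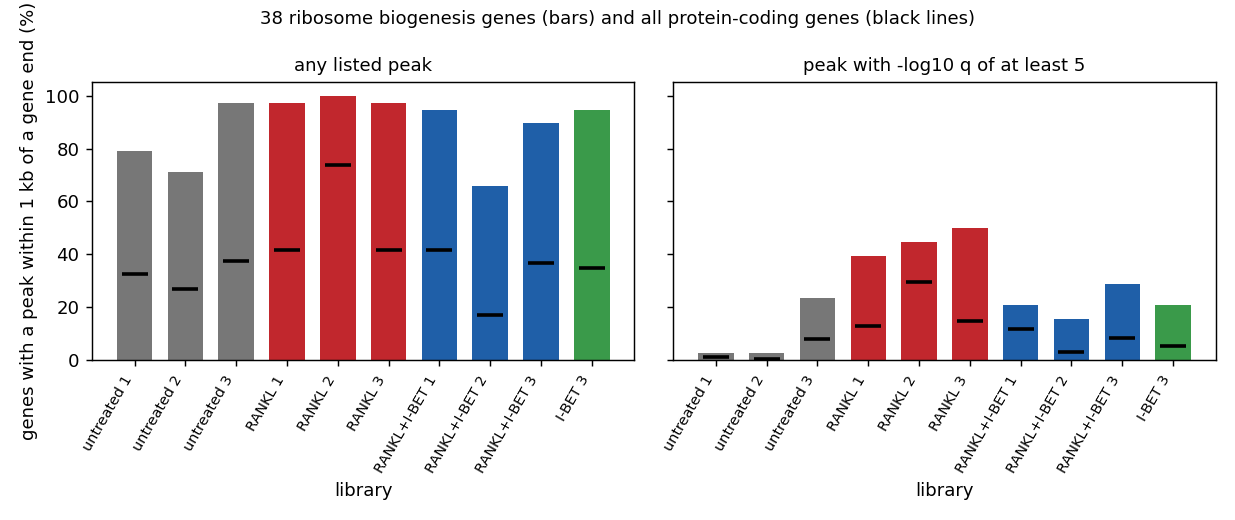
Bars give the percentage of the 38 ribosome biogenesis genes, and black lines that of all 21887 protein-coding genes, that had a peak no more than 1 kb from a gene end in each of the 10 libraries, for any listed peak (left) and for peaks with −log10 q of at least 5 (right). On the left every bar stands above its line; on the right the RANKL libraries reach 15, 17 and 19 genes and the untreated ones 1, 1 and 9.

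The same genes were marked from library to library. A gene-end peak was present in all 10 libraries for 21 of the 38 (55.3%) and for 2966 protein-coding genes (13.6%). In all 7 libraries not numbered 2 it was present for 28 (73.7%, against 27%). None of the 38 lacked a peak in every library, as 25.6% of all genes did. A second list of 91 other ribosome biogenesis genes had peaks for 67, 57 and 82 of its genes untreated, 88, 91 and 87 with RANKL, 88, 44 and 81 with both agents and 80 with I-BET, so its lowest count fell in the same library. The 20 housekeeping genes had 19 in 7 of the 10 libraries, 18 with I-BET alone, 16 in untreated replicate 2 and 10 in RANKL plus I-BET replicate 2.

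The peaks lay over transcription starts rather than at the other ends of the genes. For the 33 genes with a RefSeq start, a peak within 1 kb of it was listed for 26, 24 and 33 untreated, 33 in each RANKL library, 33, 22 and 31 with both agents and 33 with I-BET. The far end was marked in 1 to 5 genes (3.03 to 15.2%) per library other than RANKL replicate 2, which had 18 (54.5%). Over 14565 protein-coding genes with a start and a separate far end it was 1.11 to 4.68%, and 41.1% in RANKL replicate 2. The far-end share of the 33 was the higher one in each library. A start was marked in 38.4, 32.1 and 44.8% of the 14565 untreated and 49.3, 79.7 and 49.4% with RANKL. It was 49.3, 21.1 and 43.6% with both agents and 41.2% with I-BET. The share of genes covered was highest between 100 and 400 bp after the start. It reached 63.6, 51.5 and 93.9% there in the untreated libraries, 100, 100 and 97.0% with RANKL, 97.0, 48.5 and 90.9% with both agents and 93.9% with I-BET. Over the 17492 genes with a RefSeq start the highest share was 21.3, 18.1 and 35.3% untreated, 38.7, 65.4 and 39.9% with RANKL, 39.0, 9.68 and 34.3% with both agents and 31.1% with I-BET. The printed promoters end 50 bases after the start, just before this stretch.

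**Figure D2:**
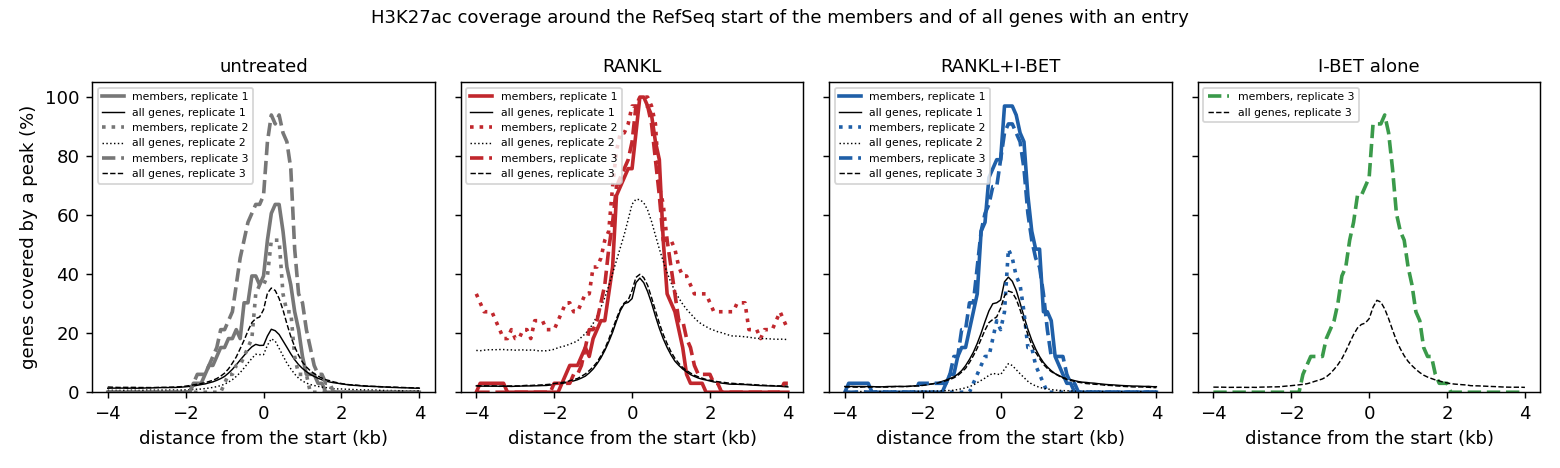
Percentage of genes covered by a peak (vertical axis) against distance from the RefSeq start in kb (horizontal axis), for the 33 ribosome biogenesis genes with a start (coloured lines) and all genes with a start (black lines), per library and group. The coloured lines rise to a maximum just after the start in all 10 libraries and lie lowest in the libraries numbered 2 of the untreated and RANKL plus I-BET groups.

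Gene ends of this group are often shared. Another protein-coding gene ended within 1 kb of a gene end for 23 of the 38 (60.5%), against 24.8% of all protein-coding genes. Examples are Noc4l with Ddx51, Imp4 with Ccdc115, Nop56 with Idh3b, Fbl with Dyrk1b, Polr1c with Xpo5 and Yipf3, and Bop1 with Hsf1 and Mroh1. At such ends a peak cannot be assigned to 1 of the genes. Small nucleolar RNA genes, whose transcripts guide rRNA modification, lay inside 7 of the 38 (18.4%, against 1.70%): 5 in Nop56, 4 in Nop58, 3 each in Wdr43 and Gnl3, 2 in Ncl and 1 each in Dkc1 and Tsr1. The median gene length was 12.9 kb, against 17.2 kb for all genes.

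The length covered by peaks in each gene and within 25 kb of it is given next, as deposited and by role, always in the order of replicates 1, 2 and 3. Its median over the 38 genes was 1.20, 0.699 and 2.10 kb in untreated cells, 2.35, 13.7 and 2.73 kb after RANKL, 2.35, 0.506 and 2.45 kb after RANKL plus I-BET and 2.09 kb after I-BET alone. RANKL replicate 2 was the highest and RANKL plus I-BET replicate 2 the lowest, as for all genes, whose medians there were 8.78 and 0 kb. In each library the median of the 38 exceeded that of all protein-coding genes, which ran from 0 to 1.04 kb outside those 2 libraries. Over genes with a gene-end peak the median was above that of the 38 in all 10 libraries. It was 1.90, 1.18 and 2.34 kb in untreated cells and 2.70, 14.1 and 2.87 kb after RANKL. After both agents it was 2.59, 0.684 and 2.47 kb, and 2.35 kb after I-BET. The sets are unlike, since the 38 include genes without such a peak. Of the 38, 3 and 5 had 0 kb in untreated replicates 1 and 2, and 9 and 1 in RANKL plus I-BET replicates 2 and 3.

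**Figure D3:**
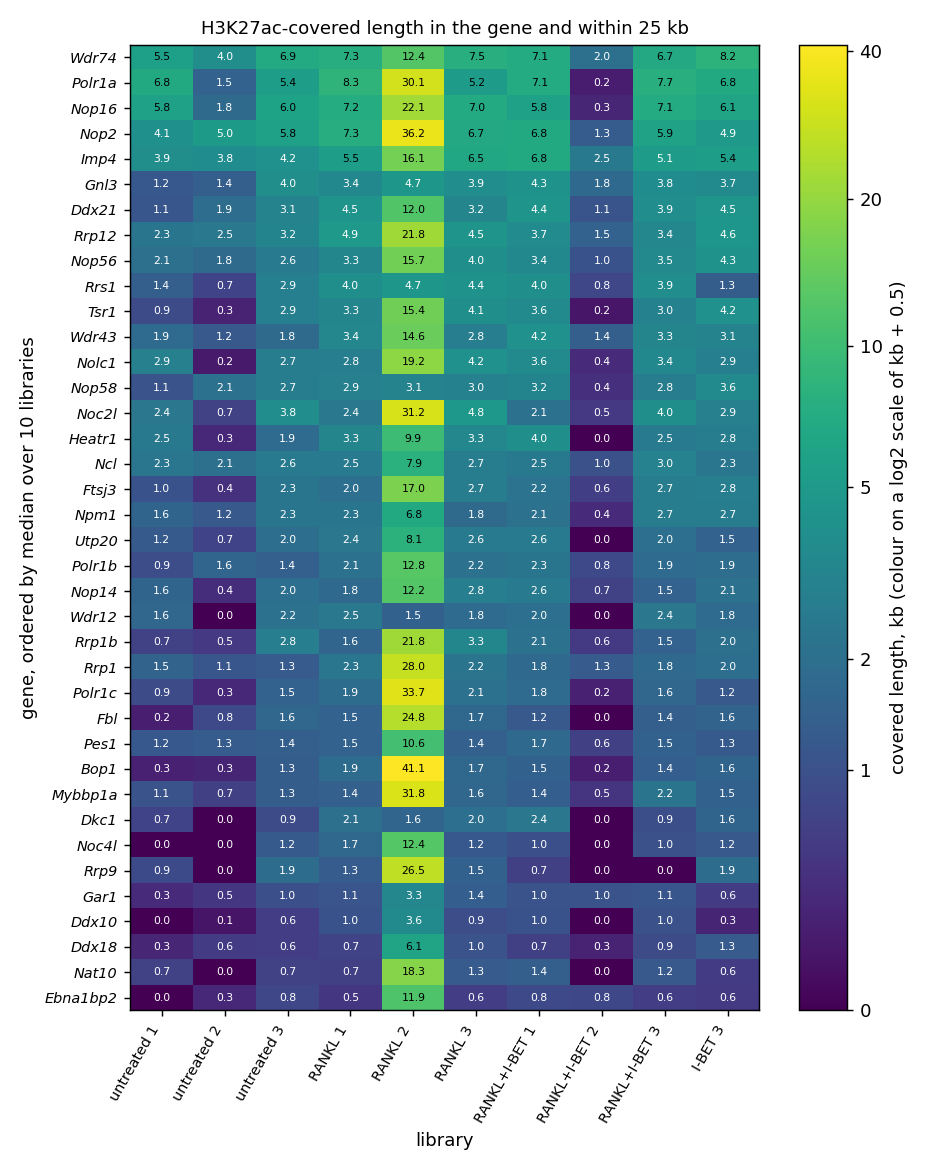
Length in kb covered by peaks in each of the 38 genes (rows, ordered by median) and within 25 kb of it, in each of the 10 libraries (columns), with colour on a log2 scale of kb + 0.5. The column of RANKL replicate 2 is the brightest for most genes and that of RANKL plus I-BET replicate 2 among the darkest; Wdr74, Polr1a and Nop16 lead the order and Ddx18, Nat10 and Ebna1bp2 close it.

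Proteins of the box C/D snoRNPs place methyl groups on rRNA. Fbl, the methyltransferase, had 0.228, 0.820 and 1.64 kb in untreated cells, 1.52, 24.8 and 1.70 kb after RANKL and 1.22, 0 and 1.39 kb after RANKL plus I-BET, against 1.55 kb after I-BET alone. Nop56, a scaffold protein of the same particle, had 2.06, 1.80 and 2.62 kb in untreated cells, 3.33, 15.7 and 4.03 kb after RANKL and 3.44, 1.04 and 3.48 kb after RANKL plus I-BET, against 4.26 kb after I-BET alone. Nop58, its partner, had 1.06, 2.09 and 2.69 kb in untreated cells, 2.91, 3.12 and 2.99 kb after RANKL and 3.20, 0.407 and 2.76 kb after RANKL plus I-BET, against 3.65 kb after I-BET alone. For Nop56 and Nop58 all RANKL libraries lay above all untreated ones, narrowly for Nop58, while for Fbl untreated replicate 3 exceeded RANKL replicate 1. Rrp9, a protein of the U3 snoRNP, had 0.853, 0 and 1.90 kb in untreated cells, 1.30, 26.5 and 1.47 kb after RANKL and 0.650, 0 and 0 kb after RANKL plus I-BET, against 1.87 kb after I-BET alone. It was the 1 gene of the 38 with no covered base in RANKL plus I-BET replicate 3. Imp4, another U3 snoRNP protein, had 3.91, 3.80 and 4.18 kb in untreated cells, 5.51, 16.1 and 6.51 kb after RANKL and 6.85, 2.51 and 5.13 kb after RANKL plus I-BET, against 5.42 kb after I-BET alone. Its window was among the 5 most covered, and RANKL and untreated libraries did not overlap.

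Box H/ACA snoRNPs convert uridine to pseudouridine in rRNA. Dkc1, the pseudouridine synthase (dyskerin), had 0.715, 0 and 0.887 kb in untreated cells, 2.07, 1.60 and 2.04 kb after RANKL and 2.40, 0 and 0.935 kb after RANKL plus I-BET, against 1.60 kb after I-BET alone. Gar1, a small subunit of the same particle, had 0.348, 0.504 and 0.967 kb in untreated cells, 1.09, 3.35 and 1.38 kb after RANKL and 1.04, 1.04 and 1.13 kb after RANKL plus I-BET, against 0.601 kb after I-BET alone. Gar1 was the only gene of the 38 whose 3 libraries with both agents all lay above the 3 untreated ones. Nolc1, a nucleolar chaperone of snoRNPs, had 2.93, 0.185 and 2.69 kb in untreated cells, 2.83, 19.2 and 4.16 kb after RANKL and 3.65, 0.357 and 3.43 kb after RANKL plus I-BET, against 2.89 kb after I-BET alone; its untreated and RANKL ranges overlapped.

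The abundant nucleolar proteins and nucleostemin were covered in all 10 libraries. Ncl, nucleolin, had 2.33, 2.06 and 2.57 kb in untreated cells, 2.54, 7.86 and 2.73 kb after RANKL and 2.47, 0.986 and 3.02 kb after RANKL plus I-BET, against 2.34 kb after I-BET alone. Npm1, nucleophosmin, had 1.59, 1.23 and 2.31 kb in untreated cells, 2.28, 6.84 and 1.81 kb after RANKL and 2.09, 0.351 and 2.71 kb after RANKL plus I-BET, against 2.73 kb after I-BET alone. Gnl3, nucleostemin, a nucleolar GTPase, had 1.20, 1.41 and 3.97 kb in untreated cells, 3.41, 4.72 and 3.87 kb after RANKL and 4.29, 1.78 and 3.82 kb after RANKL plus I-BET, against 3.67 kb after I-BET alone. For all 3 genes untreated replicate 3 lay above at least 1 RANKL library, so the groups overlapped.

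RNA polymerase I subunits make up the enzyme that transcribes the rRNA precursor. Polr1a, the largest subunit, had 6.78, 1.5 and 5.38 kb in untreated cells, 8.33, 30.1 and 5.18 kb after RANKL and 7.07, 0.204 and 7.66 kb after RANKL plus I-BET, against 6.78 kb after I-BET alone. Polr1b, which completes the catalytic centre, had 0.917, 1.63 and 1.44 kb in untreated cells, 2.12, 12.8 and 2.16 kb after RANKL and 2.29, 0.817 and 1.86 kb after RANKL plus I-BET, against 1.95 kb after I-BET alone. Polr1c, shared with RNA polymerase III, had 0.885, 0.332 and 1.51 kb in untreated cells, 1.89, 33.7 and 2.13 kb after RANKL and 1.84, 0.250 and 1.64 kb after RANKL plus I-BET, against 1.21 kb after I-BET alone. Polr1b and Polr1c were higher in every RANKL library than in every untreated one, and Polr1a was not.

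Large-subunit factors include the PeBoW complex, which is required for processing of the large-subunit rRNA. Pes1 had 1.20, 1.30 and 1.40 kb in untreated cells, 1.51, 10.6 and 1.45 kb after RANKL and 1.75, 0.648 and 1.46 kb after RANKL plus I-BET, against 1.25 kb after I-BET alone. Bop1 had 0.255, 0.291 and 1.33 kb in untreated cells, 1.89, 41.1 and 1.68 kb after RANKL and 1.46, 0.222 and 1.38 kb after RANKL plus I-BET, against 1.58 kb after I-BET alone, the 41.1 kb being the longest value in the group. Wdr12, the remaining member of the complex, had 1.65, 0 and 2.16 kb in untreated cells, 2.46, 1.47 and 1.84 kb after RANKL and 2.01, 0 and 2.38 kb after RANKL plus I-BET, against 1.83 kb after I-BET alone. Wdr12 and Dkc1 were the only genes of the 38 whose value in RANKL replicate 2 was the lowest of the RANKL group. Wdr74, a nucleolar factor of large-subunit maturation, had 5.55, 3.96 and 6.91 kb in untreated cells, 7.31, 12.4 and 7.54 kb after RANKL and 7.07, 2.04 and 6.66 kb after RANKL plus I-BET, against 8.19 kb after I-BET alone, the highest median of the 38 (6.99 kb). Nop16 had 5.80, 1.82 and 5.98 kb in untreated cells, 7.19, 22.1 and 7.0 kb after RANKL and 5.75, 0.308 and 7.12 kb after RANKL plus I-BET, against 6.10 kb after I-BET alone. Rrs1, needed to assemble the large subunit, had 1.42, 0.721 and 2.86 kb in untreated cells, 4.04, 4.70 and 4.37 kb after RANKL and 4.02, 0.774 and 3.91 kb after RANKL plus I-BET, against 1.34 kb after I-BET alone. Among these, the low value of Rrs1 with I-BET alone lay within the untreated range. Rrp1, a large-subunit processing factor, had 1.54, 1.13 and 1.28 kb in untreated cells, 2.34, 28.0 and 2.25 kb after RANKL and 1.78, 1.29 and 1.76 kb after RANKL plus I-BET, against 1.96 kb after I-BET alone. Ebna1bp2, a factor of large-subunit assembly, had 0, 0.338 and 0.781 kb in untreated cells, 0.506, 11.9 and 0.624 kb after RANKL and 0.821, 0.800 and 0.614 kb after RANKL plus I-BET, against 0.555 kb after I-BET alone, the lowest median of all (0.619 kb). Noc2l, a nucleolar protein related to a yeast ribosome export factor, had 2.36, 0.681 and 3.85 kb in untreated cells, 2.42, 31.2 and 4.79 kb after RANKL and 2.10, 0.544 and 3.99 kb after RANKL plus I-BET, against 2.91 kb after I-BET alone. Of these 3 genes Rrp1 alone was higher in every RANKL library than in every untreated one. RNA helicases of the DEAD-box family unwind rRNA precursors, and Ddx18 had 0.307, 0.570 and 0.611 kb in untreated cells, 0.739, 6.08 and 1.04 kb after RANKL and 0.665, 0.259 and 0.888 kb after RANKL plus I-BET, against 1.27 kb after I-BET alone.

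Small-subunit factors form the processome that cuts and folds the precursor of the small subunit. Utp20 had 1.24, 0.717 and 1.96 kb in untreated cells, 2.37, 8.13 and 2.57 kb after RANKL and 2.60, 0 and 2.01 kb after RANKL plus I-BET, against 1.53 kb after I-BET alone. Heatr1 had 2.51, 0.318 and 1.86 kb in untreated cells, 3.26, 9.86 and 3.35 kb after RANKL and 4.05, 0 and 2.52 kb after RANKL plus I-BET, against 2.76 kb after I-BET alone. Noc4l had 0, 0 and 1.24 kb in untreated cells, 1.70, 12.4 and 1.18 kb after RANKL and 0.980, 0 and 1.00 kb after RANKL plus I-BET, against 1.23 kb after I-BET alone. None of these 3 had a covered base in RANKL plus I-BET replicate 2. Rrp12, involved in export of ribosomal subunits, had 2.29, 2.45 and 3.21 kb in untreated cells, 4.88, 21.8 and 4.45 kb after RANKL and 3.69, 1.5 and 3.37 kb after RANKL plus I-BET, against 4.57 kb after I-BET alone. Nat10, an acetyltransferase that modifies rRNA, had 0.686, 0 and 0.671 kb in untreated cells, 0.656, 18.3 and 1.28 kb after RANKL and 1.42, 0 and 1.23 kb after RANKL plus I-BET, against 0.605 kb after I-BET alone. Ddx10, a helicase of the small-subunit pathway, had 0, 0.147 and 0.608 kb in untreated cells, 1.03, 3.65 and 0.928 kb after RANKL and 1.02, 0 and 1.00 kb after RANKL plus I-BET, against 0.295 kb after I-BET alone. Medians over the 10 libraries were 5.83 kb for Nop2 and between 1.41 and 3.58 kb for Nop14, Tsr1, Wdr43, Mybbp1a, Ftsj3, Rrp1b and Ddx21.

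Genes without a gene-end peak in at least 1 library not numbered 2 were 10 of the 38. Utp20, Dkc1, Ddx10, Noc4l and Ebna1bp2 lacked it in untreated replicate 1 alone among these libraries. Heatr1 lacked it in untreated replicate 1 and RANKL plus I-BET replicate 3, Noc2l in untreated replicate 1 and RANKL plus I-BET replicate 1, and Rrp9 in RANKL plus I-BET replicate 3. Rrp12 lacked it in untreated replicate 1, RANKL plus I-BET replicate 3 and the I-BET library. Nat10 had a gene-end peak in untreated replicate 1 and RANKL replicate 2 only. Its RefSeq start lies 1684 bp from the annotated gene end, and a peak near that start was listed in 8 libraries, all except untreated replicate 2 and RANKL plus I-BET replicate 2. Noc2l, whose start lies 1355 bp from it, had a peak near it in all 10.

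Peak height is given by the fold enrichment that the authors' peak caller wrote for each peak, and it describes peaks within a list. Its median over the gene-end peaks of the 38 genes was 2.65, 2.47 and 2.58 untreated, 3.48, 2.32 and 3.04 with RANKL, 3.58, 4.56 and 2.56 with both agents and 2.53 with I-BET. Over all genes with such a peak it was 2.66, 2.47 and 2.43, 3.18, 2.16 and 2.60, 3.52, 4.67 and 2.51, and 2.56. The value of the 38 genes was the higher one in all 3 RANKL libraries, untreated replicate 3 and RANKL plus I-BET replicates 1 and 3. It was the lower one in untreated replicates 1 and 2, RANKL plus I-BET replicate 2 and the I-BET library. The widest gene-end peak per gene had a median of 0.906, 0.615 and 1.40 kb in untreated cells, 1.52, 2.47 and 1.64 kb after RANKL, 1.60, 0.641 and 1.59 kb after both agents and 1.55 kb with I-BET. Over all genes with a peak these widths were 0.832, 0.647 and 1.17, 1.24, 2.02 and 1.33, 1.22, 0.470 and 1.23, and 1.18 kb. The peaks of the 38 were the wider ones in 9 of the 10 libraries, all but untreated replicate 2.

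RANKL against untreated cells is the comparison for the cytokine's effect at 4 h. At the level of presence, 0 of the 38 genes had a gene-end peak in all 3 RANKL libraries and no untreated one, where 1.49% of all protein-coding genes did, and 0 had the reverse pattern (0.0% of all genes). Untreated replicate 3 decides the first count: without it 6 genes were gained (Noc2l, Noc4l, Utp20, Heatr1, Rrp12 and Dkc1), against 5.57% of all. With replicates 1 and 3 only it was again 0 gained (1.80% of all) and 0 lost (0.032%). Strong peaks, here those with −log10 q of at least 5, were at the ends of 1, 1 and 9 of the 38 untreated, 15, 17 and 19 with RANKL, 8, 6 and 11 with both agents and 8 with I-BET. RANKL libraries held more than untreated ones without overlap. The same held for all genes, with 278, 109 and 1729 untreated and 2813, 6511 and 3275 with RANKL. With both agents 2573, 702 and 1884 of all genes had a strong peak, and 1197 with I-BET. As shares of all genes these were 1.27, 0.498 and 7.90% untreated and 12.9, 29.7 and 15.0% with RANKL. They were 11.8, 3.21 and 8.61% with both agents and 5.47% with I-BET. Of the genes with any peak, those with a strong one made up 3.33, 3.70 and 24.3% of the group untreated and 40.5, 44.7 and 51.4% with RANKL, against 3.91, 1.84 and 21.0% and 31.0, 40.2 and 35.8% of all genes.

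Strong peaks in all 3 RANKL libraries and in no untreated one were found at 3 of the 38 genes, where 1.58% of all genes showed this, and the reverse was found at 0 (0.0%). Without the libraries numbered 2 it was 7 (3.51% of all), with Gar1, Ftsj3, Nop16 and Nolc1 added, and 0 (0.105%). Without untreated replicate 3 it was 6 (2.19%), without RANKL replicate 1 it was 5 (4.73%) and without RANKL replicate 2 it was 6 (3.46%). The 3 were Nop2, an rRNA cytosine methyltransferase at chr6:125131883-125144753, Ddx21, a helicase of rRNA transcription and processing, and Rrp1. The highest −log10 q at a gene end of Nop2 was 1.25, 2.35 and 2.18 in untreated cells, 7.45, 8.63 and 6.08 after RANKL and 4.98, 4.68 and 3.15 after RANKL plus I-BET. For Ddx21 it was 4.74, 1.5 and 1.95 in untreated cells, 10.7, 7.62 and 5.23 after RANKL and 2.01, 5.34 and 1.92 after RANKL plus I-BET. For Rrp1 it was 1.65, 0 and 2.99 in untreated cells, 5.89, 65.6 and 5.63 after RANKL and 2.47, 3.26 and 5.43 after RANKL plus I-BET. Ddx21 in RANKL replicate 3 and Rrp1 in RANKL replicates 1 and 3 stood just above the threshold of 5, and Ddx21 in untreated replicate 1 just below it. The highest peak lay at the far end of the gene for Ddx21 in RANKL replicate 2, with a fold of 2.95 against 1.81 at the start, and for Nop2 in RANKL replicate 3, with 3.33 against 3.01.

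Covered lengths of the lists as deposited were higher in every RANKL library than in every untreated one at 23 of the 38 genes (60.5%). Among 15793 protein-coding genes with a mean of at least 500 bp the share was 41.8%, and the reverse was seen at 0 genes of the group and 0.0% of all. In replicates 1 and 3 alone it was again 23 genes, against 43.2% of all, and 0 were lower, against 1.12%. The 23 were Rrs1, Imp4, Nop58, Ddx18, Polr1b, Nop56, Gar1, Nop2, Ddx10, Ddx21, Rrp1, Utp20, Pes1, Mybbp1a, Tsr1, Heatr1, Nop16, Bop1, Polr1c, Wdr43, Wdr74, Rrp12 and Dkc1. Longer lists went with these differences. RANKL replicate 1 had more covered length than untreated replicate 1 at 36 of the 38 genes, and its list was 1.48 times as long. RANKL replicate 3 exceeded untreated replicate 3 at 31 genes with a list 1.33 times as long, and RANKL replicate 2 exceeded untreated replicate 2 at all 38 with a list 23.7 times as long. Of all genes covered in either library of a pair, 85.2, 83.3 and 99.9% were longer in these 3 pairs.

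With every list reduced to its peaks of highest −log10 p until all covered the same 3.44 Mb, the difference in presence did not remain. Peaks stood at the ends of 3, 9 and 9 of the 38 genes untreated, 6, 3 and 10 with RANKL, 3, 25 and 9 with both agents and 9 with I-BET. Among all genes the shares were 7.68, 11.8 and 7.59% untreated, 6.93, 1.74 and 6.28% with RANKL, 6.74, 17.3 and 6.88% with both agents and 6.67% with I-BET. The untreated and RANKL counts overlapped, and untreated replicate 1, at 7.89% of the 38, was near the share of all genes. At 16.1 Mb, without the libraries numbered 2, it was 30 and 29 genes untreated, 28 and 26 with RANKL, 24 and 27 with both agents and 33 with I-BET, against 32.5 and 29.5%, 26.9 and 25%, 27.9 and 27%, and 26.9% of all genes. At this length the counts of the 38 and the shares of all genes were both lower in the RANKL than in the untreated libraries.

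At the one covered length of 3.44 Mb, log2 values of covered bp plus 500 were fitted by limma over 4403 genes with a mean of at least 500 bp, 18 of them among the 38. For RANKL against untreated cells 0.0% of the 4403 genes passed at an adjusted p under 0.05, and none of the 18 did (limma, Benjamini-Hochberg, smallest adjusted p 0.871). At an unadjusted p under 0.05 there were 177 genes, 0 of them among the 18. The 18 are not representative of the 38: for 11 of them the mean of the libraries outside 1 group was under 500 bp, so that they were tested only because of that group. The group was RANKL for Imp4, Ebna1bp2, Noc4l, Ddx21, Rrp1, Polr1c and Nolc1, RANKL plus I-BET for Rrs1, Nop56 and Rrp12, and either for Gar1. The sign of their differences is therefore no evidence, and their counts and median are not read. With no such minimum all 38 entered, and 17 were higher (44.7%, against 21.2% of all 21887 genes) and 16 lower with RANKL. The median difference was 0 for the 38 and for all genes. A gene with no covered base in these libraries has a difference of 0 and counts as neither higher nor lower. The share higher and the median over all genes are therefore not read. The share of all genes that were lower was not taken. With replicates 1 and 3 only, 35 of the 38 were tested and 0 called among 10946 genes (smallest adjusted p 0.236, with 575 genes at an unadjusted p under 0.05, 1 of them among the 35). The 3 highest estimates were those of Rrp1, Imp4 and Polr1c and the 3 lowest those of Wdr74, Rrp12 and Rrs1.

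Rrp1 had 0, 1.13 and 0 kb in untreated cells, 1.67, 5.20 and 1.62 kb after RANKL and 0, 1.29 and 0 kb after RANKL plus I-BET at this length, the highest difference of the 18 (2.00 with an SE of 1.07 on the log2 scale, limma adjusted p 0.871). Imp4 had 0, 0.229 and 0 kb in untreated cells, 2.91, 0.921 and 0.867 kb after RANKL and 0, 2.51 and 0 kb after RANKL plus I-BET, and its difference was 1.73. Both genes had some length in all 3 RANKL libraries and in 1 untreated one. Polr1c had 0, 0.332 and 0 kb in untreated cells, 0, 7.02 and 1.36 kb after RANKL and 0, 0.250 and 0 kb after RANKL plus I-BET, and its difference was 1.69. For Polr1c the untreated and RANKL libraries overlapped. Wdr74 had 3.27, 3.43 and 3.65 kb in untreated cells, 2.15, 0 and 3.17 kb after RANKL and 0, 2.04 and 6.66 kb after RANKL plus I-BET, the lowest difference (−1.22 with an SE of 1.29, limma adjusted p 0.886). Rrp12 had 2.29, 0 and 0 kb in untreated cells, 0, 0 and 0 kb after RANKL and 0, 1.5 and 3.37 kb after RANKL plus I-BET, with a difference of −0.83. Rrs1 had 0, 0 and 2.01 kb in untreated cells, 0, 0 and 0 kb after RANKL and 0, 0.774 and 3.91 kb after RANKL plus I-BET, with a difference of −0.78. Rrp12 and Rrs1 each rest on 1 untreated library.

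**Figure D4:**
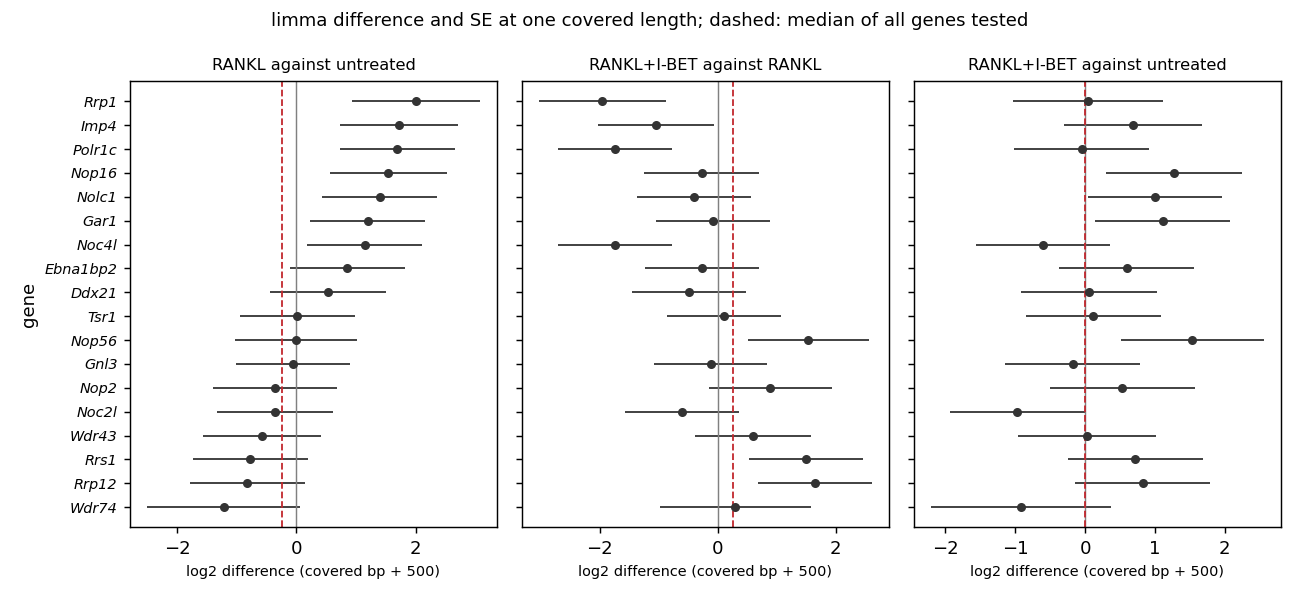
Log2 differences in covered length (bp + 500) at one covered length with their SE (horizontal axes), for the 18 ribosome biogenesis genes that limma tested (rows), in the 3 comparisons. The dashed line is the median of all 4403 genes tested, and the intervals of the 18 genes are wide: none passed at an adjusted p under 0.05.

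RANKL plus I-BET against RANKL is the comparison for the effect of BET inhibition during the response. Gene-end peaks were lost, that is present in all 3 RANKL libraries and in none with both agents, at 0 of the 38 genes (0.553% of all) and gained at 0 (0.0%). Without RANKL plus I-BET replicate 1 they were lost at 2 genes, Rrp9 and Heatr1 (3.44% of all), and without replicate 3 at 1, Noc2l (0.777%). Without the libraries numbered 2 they were lost at 0 (0.567%) and gained at 0 (0.0274%). Strong peaks were lost at 3 (1.01% of all) and gained at 0 (0.032%). In replicates 1 and 3 alone they were lost at 5 (2.37%), with Ddx21 and Nolc1 added, and gained at 0 (0.959%). Without RANKL replicate 1 they were lost at 5 (3.22%), and without RANKL plus I-BET replicate 1 they were gained at 1, Nop56 (0.146%). The 3 were Nop2, described above, Nop14 and Noc4l, of which the latter 2 act in the small-subunit processome. For Nop14 the highest −log10 q was 1.93, 0 and 6.65 in untreated cells, 15.5, 33 and 6.99 after RANKL and 1.78, 2.51 and 1.75 after RANKL plus I-BET. For Noc4l it was 0, 0 and 5.80 in untreated cells, 5.26, 85.9 and 8.47 after RANKL and 2.15, 0 and 2.51 after RANKL plus I-BET. Both had a strong peak in untreated replicate 3 as well. The highest peak of Nop14 lay at the far end of the gene in RANKL replicate 1, with a fold of 7.32 against 2.52 at the start, and in RANKL replicate 2, with 8.20 against 1.68. For Noc4l it lay there in RANKL replicate 2, with 17.8 against 8.44 at the start. Nop2 reached 4.98 in RANKL plus I-BET replicate 1, just under the threshold.

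Covered lengths as deposited were lower in every library with both agents than in every RANKL library at 9 of the 38 genes (23.7%; 23.9% of all genes) and higher at 0 (0.0%). The share is that of all genes. The 9 were Rrs1, Noc4l, Fbl, Rrp9, Rrp1, Bop1, Polr1c, Wdr74 and Rrp12, and without the libraries numbered 2 it was the same 9 (24.4% of all genes lower), with 0 higher (5.07%). In pairs of the same number, RANKL plus I-BET replicate 1 exceeded RANKL replicate 1 at 17 genes and was shorter at 21, and 46.6% of all genes covered in either library were longer. Replicate 3 with both agents was longer at 11 and shorter at 27 (21.6% of all longer), and replicate 2 was shorter at all 38 (0.0347% of all longer). The count of 9 rose to between 14 and 19 when replicate 1 or 3 of either group was left out. Leaving out a library can only keep or raise such a count. The shares over all genes were not taken for these runs, so the rise is not read.

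By limma, 0.0% of the 4403 genes passed at an adjusted p under 0.05 in this comparison, the smallest adjusted p was 0.886, and 171 genes had an unadjusted p under 0.05, 0 of them among the 18. With no minimum on the mean, 21 of the 38 were higher (55.3%, against 32.6% of all genes) and 15 lower with I-BET added. Their median was 0.092, against 0 over all genes. As above, genes with no covered base count as 0, so the share higher and the median over all genes are not read. With replicates 1 and 3 only, 0 of 10946 genes were called (limma, smallest adjusted p 0.267, 752 genes at an unadjusted p under 0.05, 4 of them among 35 of the 38). All 6 genes named next were tested only because of 1 group, as above. The lowest estimates were those of Rrp1 (−1.96 with an SE of 1.07, limma adjusted p 0.886), Noc4l (−1.75) and Polr1c (−1.74). Noc4l had 0, 0 and 1.24 kb in untreated cells, 0, 5.15 and 1.18 kb after RANKL and 0, 0 and 0 kb after RANKL plus I-BET. The highest were those of Rrp12 (1.65 with an SE of 0.96, limma adjusted p 0.886), Nop56 (1.54) and Rrs1 (1.5). Nop56 had 0, 0 and 0 kb in untreated cells, 0, 0 and 0 kb after RANKL and 0, 1.04 and 3.48 kb after RANKL plus I-BET, so that its estimate rests on 2 libraries with both agents. Rrp1 was at 0 in 2 of the 3 libraries with both agents, as in 2 of the 3 untreated ones. Both comparisons share the RANKL libraries.

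RANKL plus I-BET against untreated cells gave few differences that all libraries shared. Gene-end peaks were gained at 0 of the 38 (0.0366% of all) and lost at 0 (0.0137%), and strong ones were gained at 0 (0.169%) and lost at 0 (0.0%). Without the libraries numbered 2 gene-end peaks were gained at 0 (0.731%) and lost at 0 (0.064%), and strong ones were gained at 1, Ftsj3 (1.97%), and lost at 0 (0.183%). Strong ones were gained at 1, Nop56 (0.553%), without RANKL plus I-BET replicate 1 and at 1, Gnl3 (0.649%), without RANKL plus I-BET replicate 3. Covered lengths were higher without overlap at 1 gene, Gar1 (0.386% of all), and lower at 0 (0.0443%). In replicates 1 and 3 alone they were higher at 24 genes (63.2%; 27.7% of all) and lower at 1, Rrp9 (2.43%). Leaving out RANKL plus I-BET replicate 2 alone also gave 24, with no share over all genes taken. Lists with both agents were then again longer than untreated ones, at 35 of the 38 genes in replicate 1, whose list was 1.43 times as long (84.9% of all covered genes longer), and at 30 in replicate 3, whose list was 1.05 times as long (55.2% of all longer). In replicate 2, whose list was 0.441 times as long, 10 genes were longer and 23 shorter (16.5% of all longer). By limma 0.0% of genes passed (smallest adjusted p 1, with 65 genes at an unadjusted p under 0.05 and 0 of them among the 18). With no minimum on the mean, 24 of the 38 were higher and 13 lower, with a median of 0.14, against 0 over all genes. With replicates 1 and 3 only, 0 of 10946 genes were called (limma, smallest adjusted p 1.00, 333 genes at an unadjusted p under 0.05, 3 of them among 35 of the 38).

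Nop56 had the highest estimate (1.54 with an SE of 1.02, limma adjusted p 1), followed by Nop16 (1.27) and Gar1 (1.11). Nop56 was at 0 in every untreated and RANKL library and was tested only because of the libraries with both agents, so that its estimate was bound to be positive. At one covered length Nop16 had 0, 0 and 0 kb in untreated cells, 3.24, 0 and 1.16 kb after RANKL and 0, 0.308 and 3.87 kb after RANKL plus I-BET. Gar1 had 0, 0 and 0 kb in untreated cells, 1.09, 0 and 1.38 kb after RANKL and 0, 1.04 and 1.13 kb after RANKL plus I-BET. All untreated libraries were at 0 for these 2 genes. The lowest estimates were those of Noc2l (−0.97 with an SE of 0.97, limma adjusted p 1), Wdr74 (−0.92) and Noc4l (−0.60). Noc2l had 2.36, 0 and 0.863 kb in untreated cells, 0, 0 and 3.20 kb after RANKL and 0, 0.544 and 0 kb after RANKL plus I-BET, and its groups overlapped. Among the 91 other ribosome biogenesis genes 29 were tested and 0 called in each comparison.

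I-BET alone was measured in 1 library and has no replicate check. Against untreated replicate 3, which has the same number and a list of nearly the same length (19.6 and 19.5 Mb), covered length was longer at 21 of the 38 genes and shorter at 17. Over all genes covered in either library 45.3% were longer. Against RANKL plus I-BET replicate 3 it was longer at 20 and shorter at 18 (40.4% of all genes longer). The gene-end peaks numbered 36 with I-BET and 37 in untreated replicate 3, and the strong ones 8 and 9. Over all genes the gene-end peaks numbered 7610 (34.8%) with I-BET and 8242 (37.7%) in untreated replicate 3. The strong ones numbered 1197 (5.47%) and 1729 (7.90%). The counts of the 38 were thus close in this pair, while over all genes strong peaks were fewer with I-BET. Which of the 38 had a strong peak mostly differed. Rrs1, Wdr74 and Noc4l had one in both libraries. Ncl, Nop2, Rrp1b, Polr1c and Ftsj3 had one only in the I-BET library of this pair. Nop14, Bop1, Pes1, Wdr12, Ddx10 and Tsr1 had one only in untreated replicate 3.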

How the data were processed

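H3K27ac ChIP-seq peak lists of 10 RAW264.7 libraries were used; 10 input libraries were not used here. The submitters' processing notes name FastQC, Bowtie2, MACS2 and the build mm10 (GRCm38), without versions or roles; the columns are those of a MACS2 broad-peak list. The call settings, the filters and the use of inputs are not given in the sources used here. Per peak, the authors deposited a score, a fold enrichment (a ratio) and −log10 p and −log10 q. Each library has its own list, the lists differ in length, and no counts or depths are known.

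Gene ends came from RefSeq GRCm38.p6 (21887 protein-coding genes, mitochondrial ones left out). Peaks within 1 kb of either end, bases covered in the gene and within 25 kb, and the highest fold were taken per gene and list. For tests, lists were reduced by −log10 p to one covered length of 3.44 Mb, a pseudocount of 500 bp was added, genes with a mean of at least 500 bp were kept, and limma 3.58.1 (R 4.3.3, trended variance, Benjamini-Hochberg over all genes tested, adjusted p under 0.05) was fitted to 9 libraries in 3 groups. Scripts ran under Python 3.11.15 with pandas 2.3.3. The limma fit was tested on simulated normal values with planted changes.

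The 38 genes and the comparison lists were chosen with earlier results of these data known. Values per library are given for genes gained, lost or called, lacking a gene-end peak in a library not numbered 2, among the 3 largest or smallest medians, among the 3 highest or lowest estimates per comparison, or belonging to a set of 15 core factors. Nop2, Ddx21 and Nop14 are given as genes with a gained or lost strong peak. The counts of covered lengths without overlap, the split by start and far end the values at one covered length without the libraries numbered 2 and the strong peaks gained or lost without single libraries were added after seeing the data. Alternatives varied the ranking, window, pseudocount, filter, distance, threshold, list length, libraries and replicate block.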

Additional observations from a re-analysis of the deposited data

How the results depend on the processing

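The limma counts of 0 genes called, in all 3 comparisons, stayed at 0 under every alternative run. The median difference of the genes tested did not keep its sign. Of the 18 genes in the main run 11 were tested only because of 1 group. The sign of this median is therefore no evidence, here and below. Of 11 alternatives that leave out no single library, 7 gave the sign of the 0.27 found for RANKL against untreated, 3 the other (−0.24 with lists as deposited and median-centred, −0.0078 with peaks ranked by fold) and 1 a 0. For RANKL plus I-BET against RANKL 7 gave the sign of −0.19 and 4 the other, up to 0.52 with lists as deposited and median-centred. For RANKL plus I-BET against untreated 10 gave the sign of 0.32 and 1 the other. It was −1.22 for RANKL against untreated and −0.92 for RANKL plus I-BET against untreated where a mean of at least 2000 bp was required, which left 1 of the 38 genes. Without the libraries numbered 2 Wdr74 turned to 0.053 (RANKL against untreated), Nop56 to −0.20 (RANKL plus I-BET against untreated) and Rrp12 to −0.0034, or −0.19 with lists as deposited and median-centred (RANKL plus I-BET against RANKL). With lists as deposited and median-centred Rrp1 turned to 0.25 (RANKL plus I-BET against RANKL) and Noc2l to 0.041 (RANKL plus I-BET against untreated). The cause was not tested.

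Gene-end counts changed with the threshold and at one covered length. Their means were 3.67, 17 and 8.33 genes (untreated, RANKL, both agents) for −log10 q of at least 5, 7, 6.33 and 12.3 at one covered length, and 27 with RANKL and 25.5 with both agents at one length without the libraries numbered 2. At 2 kb the RANKL mean was 38. At −log10 q of at least 5, 3 genes were gained with RANKL, 3 were lost with I-BET added, and the median covered length was 0 kb untreated and 0 kb with both agents. The highest fold anywhere within 25 kb had an untreated median of 2.69. Without the libraries numbered 2, covered lengths did not overlap, RANKL plus I-BET against untreated, at 24 genes (higher) and 1 gene (lower), and strong peaks were gained at 7 genes with RANKL, lost at 5 with I-BET added and gained at 1 with both agents against untreated.

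Leaving out 1 library at a time, the median differences ran from 0.06 to 0.64, −0.59 to 0.31 and −0.24 to 0.82 for RANKL against untreated, RANKL plus I-BET against RANKL and RANKL plus I-BET against untreated, and Noc2l from −1.63 to 0.25, the latter without RANKL plus I-BET replicate 2. Gained genes with RANKL ran from 0 to 6 (6 without untreated replicate 3) and lost genes with I-BET added from 0 to 2 (2 without RANKL plus I-BET replicate 1, 1 without replicate 3). Over all genes the shares in these runs were 1.51 to 5.57% gained and 0.557 to 3.44% lost. Strong peaks ran from 3 to 6 genes gained with RANKL (1.60 to 4.73% of all). With I-BET added 3 to 5 were lost (1.11 to 3.22%) and 0 to 1 gained (0.0411 to 0.471%). With both agents against untreated 0 to 1 were gained (0.169 to 1.93%). Covered lengths without overlap ran from 23 to 34 genes higher with RANKL and 9 to 19 lower with I-BET added. Against untreated, both agents gave 1 to 24 higher (24 without RANKL plus I-BET replicate 2) and 0 to 1 lower. Leaving out a library can only keep or raise such counts. For the covered lengths without overlap the shares over all genes were not taken. The mean gene-end count ran from 28.5 to 33.5 untreated, 37 to 37.5 with RANKL and 29.5 to 35 with both agents, and the mean of the median covered lengths from 0.949 to 1.65, 2.54 to 8.20 and 1.43 to 2.40 kb. Without RANKL replicate 2 it was the lowest of the RANKL values, 2.54 kb.

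Same-numbered libraries correlated between 0.0141 and 0.252 in their deviations from the group means. Libraries of different numbers correlated between −0.172 and 0.052, so a part shared by number is possible and was not tested. The same-numbered values were not all over 0.1, and the numbers were not taken to pair the libraries. With the replicate block limma called 0 genes in each comparison (smallest adjusted p 0.828, 0.847 and 1), and the median differences were 0.27, −0.19 and 0.32. Depth cannot be read from these lists, so an absent peak is only an unlisted one.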

Other observations

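In RANKL replicate 2 alone, peaks at the far end of the gene often exceeded those at the start. Of the 33 ribosome biogenesis genes with a RefSeq start, 9 had a higher fold at the far end there (Nop56, Nop14, Rrp9, Rrp1b, Wdr74, Polr1a, Ddx21, Noc2l and Noc4l), against 1 to 3 in each of the other 9 libraries. Over 14565 protein-coding genes the far end had the higher fold in 19.0% there and in 0.899 to 2.92% in the others. Polr1a had 3.17 at the far end and 1.84 at the start, Noc2l 5.36 and 1.80, and Rrp9 2.99 and 2.26. Any far-end peak was listed for 54.5% of the 33 genes and 41.1% of all in that library. In the others it was listed for 3.03 to 15.2% of the 33 and 1.11 to 4.68% of all.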
